A study of Mus musculus with 18 samples.

Results

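Lrrc14b, Mlf1, Riiad1, Apobec2, and Slc41a3 were grouped as muscle genes, and were measured in the mouse whisker pad after its motor nerve had been cut. These 5 of the 35150 genes in the data were selected on this very comparison, for lower values on the denervated side, so the differences between the sides are given here as a description and carry no p value. RNA was sequenced from 18 punch biopsies of skin and muscle of the rostral whisker pad of 9 adult mice of both sexes, with 3 mice at each of days 1, 3, and 7. In each mouse 2 branches of the facial nerve, the buccal and the superior marginal, were transected on the right (denervated), and on the left the skin was cut and closed over an uncut nerve (sham). All mice thus had surgery on both sides, and side and lesion cannot be told apart, since every lesion was on the right. The study used males and females, but the sex of each of these mice was not given in the sources used here. Their strain or transgene was not given either. The level of a gene is the sum of the normalized TPM of its transcripts, a measure of abundance per length that was also normalized between samples, and a difference is log2(TPM + 0.5) of the denervated side minus that of the sham side of the same mouse, written as mean ± SD over 3 mice.

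Skeletal muscle fibers receive their activity from motor neurons, and a fiber that has lost its nerve switches its gene expression. It makes the fetal subunits of the acetylcholine receptor and the transcription factor myogenin again, and it lowers many genes of mature fibers. The genes described here belong to different families and share no known pathway. Mlf1 is myeloid leukemia factor 1, an adaptor that binds 14-3-3 proteins. Riiad1 carries the docking domain found in the regulatory subunits of protein kinase A, Lrrc14b is a protein of leucine-rich repeats, Apobec2 is the muscle member of the AID/APOBEC family of deaminases, and Slc41a3 is a magnesium transporter.

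The biopsies held muscle and the lesion was visible in them. Acta1, the actin of skeletal muscle, was between 404 and 4857 TPM in all 18 samples. The level of Myog, which encodes myogenin, was 4.65 ± 2.15 TPM (SD, n = 3) on the sham side and 181 ± 17.1 TPM on the denervated side at day 3 (log2 change 5.21, SE 0.27, limma adjusted p = 0.000887). The receptor subunits Chrna1 and Chrnd also rose at day 3, by 3.67 (SE 0.29, limma adjusted p = 0.00395) and 3.79 (SE 0.41, limma adjusted p = 0.0117) on the log2 scale. Both biopsies of mouse 1 of day 1 stood apart. Their summed TPM of 15 myofiber markers was 4934 (sham) and 7093 (denervated), and the other 4 samples of day 1 had 14447 to 25189. Samples of days 3 and 7 had 14717 to 28674. The main results of day 1 are therefore given with and without this mouse. In bulk tissue, fewer muscle fibers and less RNA per fiber cannot be told apart.

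The grouping as muscle genes was borne out unevenly. Over the 9 sham samples the log2 levels of Lrrc14b, Mlf1, Apobec2, and Slc41a3 had Pearson correlations of 0.98, 0.94, 0.96, and 0.88 with the mean log2 level of the 15 myofiber markers, and over the 8 that remain without mouse 1 of day 1 these were 0.90, 0.68, 0.84, and 0.72. Riiad1 did not follow the markers, with 0.28 over the 9 samples and -0.31 over the 8. In the sham biopsy poorest in muscle markers Riiad1 was 16.4 TPM, close to the 18.8 and 19.3 TPM of the other sham samples of that day. Over all 18 samples, which include the denervated side, the correlations were 0.68, 0.38, 0.60, and 0.28 for the first 4 genes and -0.01 for Riiad1. The samples share the amount of muscle taken in a punch, so these values are descriptions.

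The genes lie apart in the genome (GRCm38). Lrrc14b is on chromosome 13 at chr13:74359578-74364005 on the minus strand, with 1 transcript of 2 exons. Mlf1 (chr3:67374097-67400003, plus strand, 4 transcripts) and Riiad1 (chr3:94464983-94480341, minus strand, 3 transcripts) share chromosome 3. Apobec2 is at chr17:48419231-48432930 on the minus strand and was measured by its coding transcript Apobec2-201. Slc41a3 is at chr6:90604725-90646412 on the plus strand, with 2 coding transcripts that begin at different first exons. Because the library kit did not mark strand, reads from genes on opposite strands that share exons cannot be told apart. This matters for Lrrc14b: all of its 2755 exonic bases lie inside exons of Ccdc127, which is transcribed the other way. Riiad1 shares 74 of 813 exonic bases with Celf3. Mlf1 and Apobec2 overlap a gene on the other strand but share 0 exonic bases with it, and no gene overlaps Slc41a3.

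The bases before the starts of these genes were read for matches to sites that muscle transcription factors are known to bind. RefSeq (GRCm38.p6) had a promoter window for 4 of the 5 genes, and none was at hand for Riiad1. The 250 bases before the start were searched on both strands for the E-box CANNTG that myogenic factors bind, with its form CAGCTG and its form CACCTG, read also as its reverse complement, for the M-CAT motif with the letters CATTCC, for the MEF3 motif with the letters TCAGGTT, for the Runx motif with the letters TGTGGT, for the MEF2 site, and for the CArG box. Capitals mark a match, and only long unbroken stretches free of annotated exons, or at most 30 bases round a MEF2 match, are printed. Apobec2 is left out, as exons covered 202 of its 250 bases.
Mlf1, chr3:67373847-67374096, plus strand: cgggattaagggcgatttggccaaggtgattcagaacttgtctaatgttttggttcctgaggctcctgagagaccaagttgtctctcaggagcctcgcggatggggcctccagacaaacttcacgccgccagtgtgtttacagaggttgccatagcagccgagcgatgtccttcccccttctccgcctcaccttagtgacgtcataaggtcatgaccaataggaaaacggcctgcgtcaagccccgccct
Slc41a3, before the first exon of Slc41a3-201, chr6:90618996-90619146, plus strand: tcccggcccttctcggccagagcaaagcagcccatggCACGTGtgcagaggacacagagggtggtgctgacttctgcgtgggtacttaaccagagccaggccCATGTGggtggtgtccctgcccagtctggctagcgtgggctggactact
Lrrc14b, the MEF2 match, chr13:74364012-74364041, minus strand: gcagcagcagCTATAAATAGccacaacact
The windows had little in common. Mlf1 had no match to any of these motifs. Lrrc14b had a MEF2 match at bases -31 to -22, whose letters also hold the TATAAA of a TATA box, and 2.92% of 32851 promoters held a MEF2 match. It also had 2 E-boxes (CAGATG) and a Runx match that adjoins the second of them. Apobec2 and Slc41a3 each had CAGCTG at bases -23 to -18 before the RefSeq start, which GENCODE places inside the first exon of both genes. CAGCTG was in 13% of promoters and any CANNTG in 66.2%. Apobec2 was the only one of the 4 with CATTCC, which 12.6% of promoters held. It also had CACCTG at bases -181 to -176, and 17.2% of promoters held this form or its reverse complement. A match is only a match of letters and no site of binding.

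At day 3, 4 of the 5 genes were low on the denervated side in all mice with a wide gap, and Slc41a3 joined them at day 7. Onset was set as the first day at which all 3 denervated samples lay below all 3 sham samples with a mean difference of -1 or less. Lrrc14b, Mlf1, Riiad1, and Apobec2 met this at day 3, and Slc41a3 at day 7. None of the 5 met it at day 1, and the number was 4 at day 3 and 5 at day 7. Among all genes tested, 0.271% met the same rule at day 1, 0.957% at day 3, and 0.782% at day 7. Mouse 1 of day 1 decided the onset: without it Lrrc14b (-3.89), Mlf1 (-2.01), and Apobec2 (-1.44) met the rule at day 1, which makes 3 of 5, and 2.25% of all genes tested did so in these 2 mice. As the genes were chosen for this, nothing is read from the contrast with the background. At days 3 and 7 the denervated side was lower in 30 of 30 comparisons of a gene within a mouse, and at day 1 in 10 of 15, or 8 of 10 without mouse 1. These comparisons are not independent, as the 5 genes of a mouse share its biopsies and were chosen for lower values. The share of all genes lower in every mouse was not computed, so nothing is read from these counts. The median over the 5 genes was -1.09 at day 1, -1.89 at day 3, and -1.89 at day 7. At day 1 it was -1.44 without mouse 1 and -0.62 without mouse 3, and the mean over the 5 genes was -0.63. The median of all genes tested was 0.007, -0.015, and 0.039. Slc41a3 went against the description of a gene lost after denervation at day 1, where its level was higher on the denervated side.

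**Figure D1:**
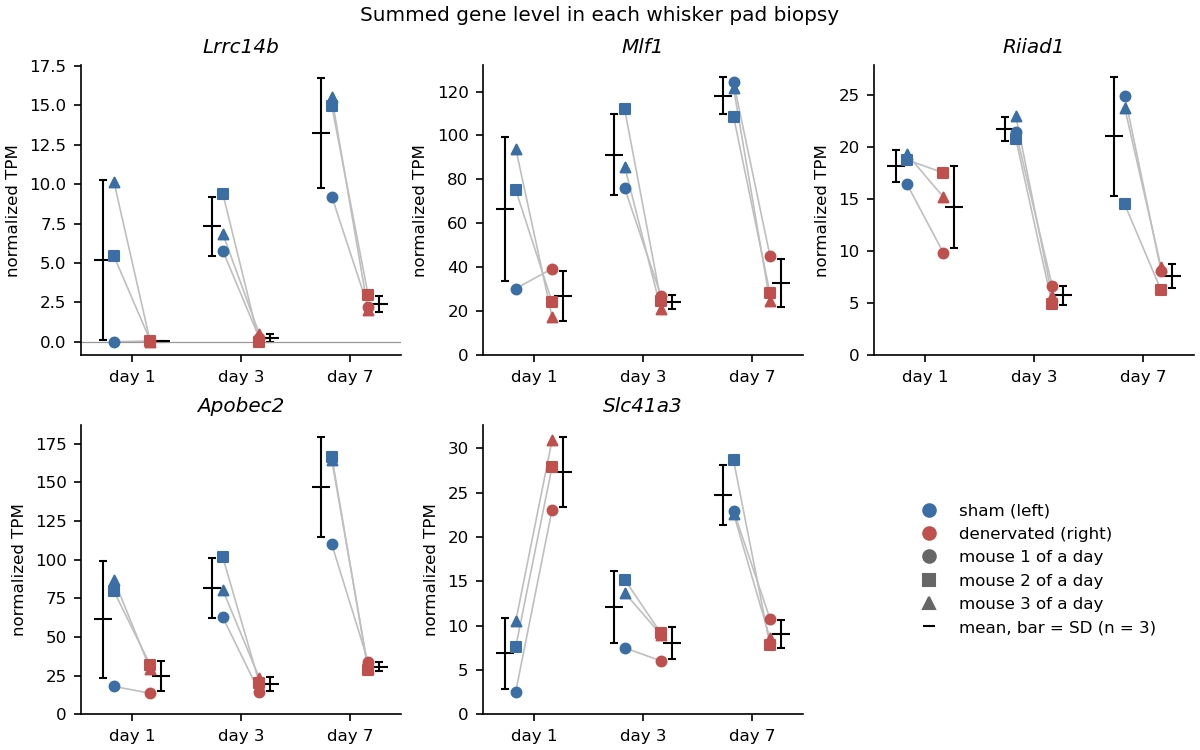
Level of each gene (normalized TPM, linear axis) in the sham (blue) and denervated (red) biopsy of each mouse at days 1, 3, and 7, with grey lines joining the sides of a mouse and black bars for mean and SD (n = 3). The sides do not overlap at days 3 and 7, except for Slc41a3 at day 3, and at day 1 Slc41a3 is the gene with higher denervated levels in all 3 mice.

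Mlf1 and Apobec2 had the highest levels of the 5 genes in sham tissue. At day 1 the level of Mlf1 was 30.2, 75.1, and 94.0 TPM on the sham side of mice 1, 2, and 3, and 39.3, 24.2, and 17.3 TPM on the denervated side. The sides overlapped, because mouse 1 had the lowest sham and the highest denervated value. At day 3 the sham levels were 75.9, 112, and 85.8 TPM and the denervated levels 27.0, 24.5, and 20.7 TPM, with a wide gap between the sides. At day 7 they were 124, 109, and 121 TPM against 45.3, 28.4, and 24.4 TPM, again without overlap. The difference was -1.22 ± 1.43 at day 1, or -2.01 without mouse 1 and -0.62 without mouse 3. It was -1.89 ± 0.37 at day 3 and -1.88 ± 0.42 at day 7. The denervated mean was 26.4% of the sham mean at day 3 and 27.7% at day 7.

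The coding transcripts of Mlf1 did not share this evenly. Mlf1-201 held 80.5% of the TPM of the gene over all samples and was lower on the denervated side in all 9 mice, with differences of -1.70 ± 0.88, -2.31 ± 0.28, and -2.03 ± 0.38 at days 1, 3, and 7. Mlf1-202, with 17.5% of the TPM, differed less, by -0.85 ± 0.42 at day 3 and -0.49 ± 0.47 at day 7. At day 1 it was 25.5 TPM in the denervated and 5.15 TPM in the sham biopsy of mouse 1, and lower on the denervated side in the other 2 mice. By these estimates the high denervated level of Mlf1 in mouse 1 of day 1 lay in Mlf1-202, while Mlf1-201 was 24.1 TPM (sham) and 13.7 TPM (denervated) there. That rests on 1 biopsy, and how reads were divided between the transcripts was not tested. The share of Mlf1-201 was 77.8 ± 8.3% (sham) and 57.7 ± 11.5% (denervated) at day 3, and 90.4 ± 1.5% and 81.5 ± 3.5% at day 7.

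Riiad1 had the narrowest range of sham levels, 14.5 to 24.9 TPM, and a difference that appeared between days 1 and 3. Its sham levels at day 1 were 16.4, 18.8, and 19.3 TPM, and its denervated levels were 9.84, 17.5, and 15.2 TPM. The sides overlapped, although each mouse had its lower value on the denervated side. At day 3 the sham levels were 21.4, 20.8, and 23.0 TPM and the denervated levels 6.65, 4.89, and 5.62 TPM. At day 7 they were 24.9, 14.5, and 23.7 TPM against 8.09, 6.22, and 8.42 TPM. The highest denervated sample of days 3 and 7 was below the lowest sham sample of any day. The difference went from -0.38 ± 0.31 at day 1 (-0.22 without mouse 1) to -1.85 ± 0.20 at day 3 and -1.39 ± 0.21 at day 7. These rest on few reads. The estimated number of reads on Riiad1 was 65.6 to 123 per sham library and 15.6 to 43.0 per denervated library at days 3 and 7.

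Its coding transcript Riiad1-201 held 68.1% of the TPM of Riiad1 and had larger differences than the sum at the later days, -2.24 ± 0.48 at day 3 and -1.83 ± 0.28 at day 7. The short noncoding transcripts Riiad1-202 and Riiad1-203 differed in both directions between mice. The TPM of Celf3, which shares exonic bases with Riiad1, ranged from 2.37 to 7.08 on the sham side and from 1.85 to 5.49 on the denervated side.

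Lrrc14b had the lowest levels and, at day 3, the largest difference. At day 1 its sham level was 0, 5.43, and 10.1 TPM and its denervated level 0.0449, 0.0719, and 0 TPM. In mouse 1 the sham side had 0 and the denervated side 3.6 estimated reads, so no difference can be read there, while in mice 2 and 3 the sides were far apart. At day 3 the sham levels were 5.76, 9.39, and 6.84 TPM and the denervated levels 0.258, 0, and 0.511 TPM. At day 7 they were 9.21, 14.96, and 15.5 TPM against 2.20, 2.98, and 2.00 TPM. The sides did not overlap at either of these days, and all denervated samples of day 7 were above all those of day 3. A level of 0 in these libraries allows up to 0.077 TPM (sham, mouse 1 of day 1), 0.084 TPM (denervated, mouse 3 of day 1), and 0.133 TPM (denervated, mouse 2 of day 3), from a limit of 3 reads that covers counting error only.

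The difference of Lrrc14b was -3.40 ± 0.79 at day 3 and -2.23 ± 0.42 at day 7. The denervated mean was 3.5% of the sham mean at day 3 and 18.1% at day 7. At day 1 it was -2.55 ± 2.38 over 3 mice and -3.89 over mice 2 and 3. Only 2 of the 6 samples of day 1 reached 1 TPM, so Lrrc14b was not among the genes tested at that day, and it passed this filter at days 3 and 7, at day 3 through its sham samples alone.

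The reads of Lrrc14b can also come from Ccdc127, whose exons cover both exons of Lrrc14b. Of the transcripts of Ccdc127, Ccdc127-201 was 6.37 to 8.26 TPM in the 9 sham samples and 4.93 to 7.84 TPM in the 9 denervated samples. Its mean difference was -0.36 at day 1, where all 3 mice were lower (-0.53 to -0.25), -0.05 at day 3, and -0.01 at day 7. The whole gene Ccdc127 was 7.49 to 16.4 TPM (sham) and 6.15 to 14.86 TPM (denervated), with differences within a mouse from -0.62 to 0.65. The overlap was computed for Ccdc127 as a whole and not for each of its transcripts. How reads were divided between the genes was not tested.

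Apobec2 reached the highest single level of the 5 genes, 167 TPM. At day 1 its sham level was 17.9, 79.5, and 87.1 TPM and its denervated level 13.5, 31.8, and 29.0 TPM. All 3 mice were lower on the denervated side, but the low sham sample of mouse 1 lay among the denervated samples. At day 3 the sham levels were 62.6, 101, and 80.2 TPM and the denervated levels 14.5, 20.4, and 23.6 TPM. At day 7 they were 109.9, 167, and 164 TPM against 34.1, 28.7, and 29.7 TPM. The difference was -1.09 ± 0.62 at day 1 (-1.44 without mouse 1), -2.03 ± 0.27 at day 3, and -2.21 ± 0.47 at day 7. The denervated mean was 40.3%, 24.0%, and 21.0% of the sham mean at the 3 days.

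Sham levels of Apobec2 were not the same at each day. The mean was 61.5 TPM at day 1, 81.4 TPM at day 3, and 147 TPM at day 7, and the sham samples of day 7 did not overlap with those of day 3. The denervated means were 24.8, 19.5, and 30.8 TPM, and those of day 7 lay above all those of day 3, while those of day 1 overlapped with both. Since each day came from other mice, the change over days compares different animals.

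Slc41a3 was the gene whose direction turned. At day 1 its sham levels were 2.55, 7.61, and 10.5 TPM and its denervated levels 23.1, 27.9, and 30.9 TPM. The denervated side was higher in 3 of 3 mice with no overlap, a mean 3.97 times that of the sham side. At day 3 the sham levels were 7.49, 15.2, and 13.7 TPM and the denervated levels 6.01, 9.12, and 8.96 TPM, so each mouse was lower on the denervated side but the sides overlapped. At day 7 they were 22.9, 28.6, and 22.6 TPM against 10.8, 7.83, and 8.56 TPM, with no overlap. The difference was 2.09 ± 0.76 at day 1 (1.66 without mouse 1), -0.53 ± 0.21 at day 3, and -1.40 ± 0.38 at day 7. Among all genes tested at day 1, 0.46% were higher by 1 or more with no overlap, and Slc41a3 ranked 51 of 14776 from the highest difference.

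By the estimated transcript levels, the turn was carried by 1 of the coding transcripts. How reads were divided between the transcripts was not tested. Slc41a3-201, which begins at the inner first exon, was 2.55, 5.25, and 8.09 TPM on the sham side of day 1 and 22.1, 26.6, and 28.9 TPM on the denervated side. This is a difference of 2.30 ± 0.56. Slc41a3-202, which begins at the outer first exon, was 0, 2.35, and 2.39 TPM (sham) and 0.965, 1.34, and 2.01 TPM (denervated), which overlapped. At day 7 both transcripts were lower on the denervated side in all 3 mice, by -1.51 ± 0.41 for Slc41a3-201 and -1.25 ± 0.49 for Slc41a3-202. Slc41a3-201 made up 82.1 ± 16% (sham) and 94.8 ± 1.2% (denervated) of the gene at day 1, and 47.9 ± 3.9% and 44.9 ± 10.9% at day 3, so its share was lower at day 3 on both sides. Sham levels of Slc41a3 also differed between days, with means of 6.88, 12.1, and 24.7 TPM, and those of day 7 did not overlap with those of day 3.

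**Figure D2:**
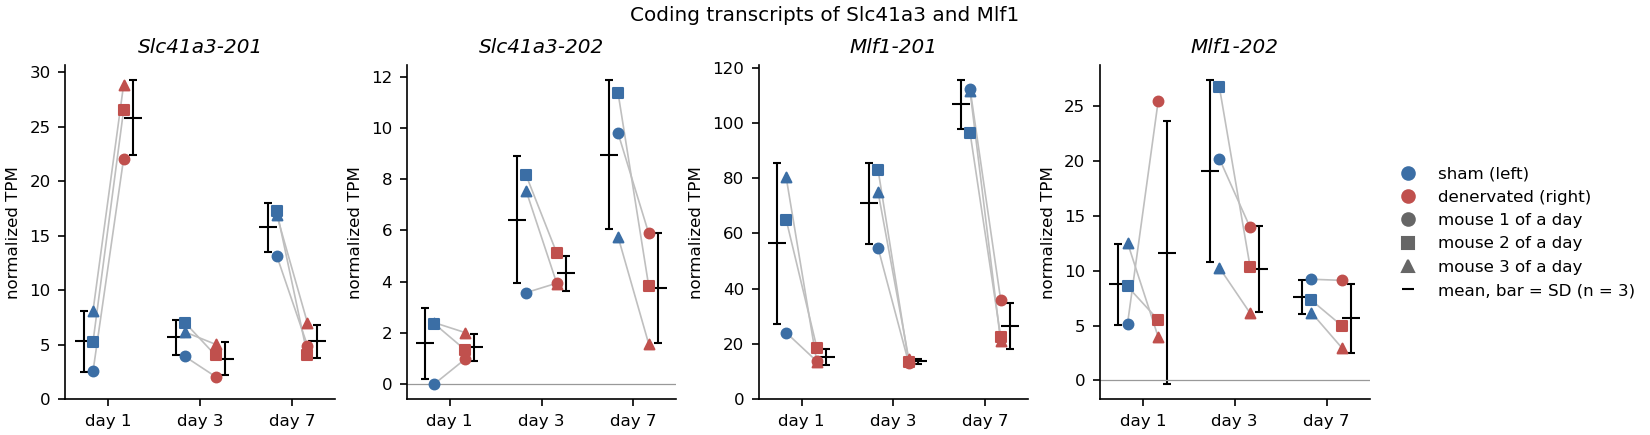
Level (normalized TPM, linear axis) of the coding transcripts of Slc41a3 and Mlf1 in the sham (blue) and denervated (red) biopsy of each mouse, with black bars for mean and SD (n = 3). Slc41a3-201 is 22.1 to 28.9 TPM on the denervated side of day 1 and 2.55 to 8.09 TPM on the sham side, while Slc41a3-202 overlaps there, and the single high value of Mlf1-202 at day 1 is the denervated biopsy of mouse 1.

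**Figure D3:**
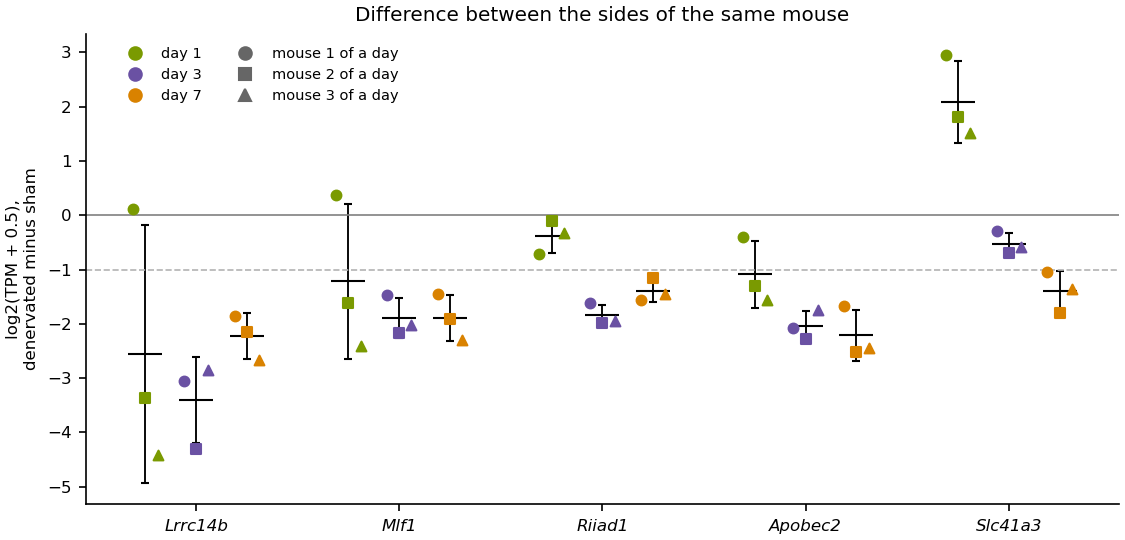
Difference between the sides of each mouse in log2(TPM + 0.5), with days as colors, mice as symbols, and black bars for mean and SD (n = 3). All points of days 3 and 7 lie below 0, the dashed line marks the onset value of -1, and the points of day 1 spread from -4.41 (Lrrc14b, mouse 3) to 2.95 (Slc41a3, mouse 1).

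Levels were also taken relative to the muscle RNA in the same biopsy. Per 1000 TPM of the 15 myofiber markers, Apobec2 was 3.91 ± 0.64 on the sham side and 2.01 ± 0.10 on the denervated side at day 1, with no overlap, although its plain levels had overlapped. Without mouse 1 these means were 4.05 and 2.06. At day 3 it was 4.47 ± 0.80 against 1.10 ± 0.20 and at day 7 5.39 ± 0.77 against 1.26 ± 0.04. On this scale Slc41a3 was 0.459 ± 0.051 against 2.41 ± 0.74 at day 1 (0.43 against 1.99 without mouse 1), 0.659 ± 0.177 against 0.450 ± 0.050 at day 3, and 0.917 ± 0.117 against 0.368 ± 0.039 at day 7. Mlf1 was 5.02 ± 0.79 against 1.39 ± 0.38 at day 3 and 4.40 ± 0.63 against 1.32 ± 0.36 at day 7. At day 1 Lrrc14b, Mlf1, and Riiad1 overlapped on this scale, with Mlf1 at 4.75 ± 1.24 against 2.78 ± 2.40 (4.06 against 1.40 without mouse 1). For each gene the sides that had no overlap in plain TPM had none on this scale. The share of all genes without overlap on this scale was not computed.

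Subtracting the median difference of the markers in the same mouse left differences of -3.24 (Lrrc14b), -1.73 (Mlf1), -1.68 (Riiad1), -1.87 (Apobec2), and -0.37 (Slc41a3) at day 3, and of -2.21, -1.87, -1.37, -2.20, and -1.39 at day 7. At day 1 Apobec2 was at -0.81 ± 0.20 and Slc41a3 at 2.38 ± 0.21, with a smaller SD than before, and without mouse 1 they were at -0.79 and 2.31. Riiad1 was at -0.10 ± 0.95 on this scale, and its sign turned without mouse 1, to 0.43. The myofiber markers themselves had a median change of -0.20 at day 3 and -0.07 at day 7. Single markers were less steady, and at day 3 they ran from -1.66 (Tcap) to 2.61 (Actn3). An unadjusted limma p under 0.05 was found for 6 of 15 at day 3 and 6 of 15 at day 7. By mean, 10 were lower and 5 higher at day 3, and 8 lower and 7 higher at day 7. The scale thus also holds changes of the markers. Of the 15, 1 passed the limma test at day 3 and was higher (Actn3, the actinin of fast fibers, by 2.61, SE 0.43, limma adjusted p = 0.0475). At day 7, 3 passed. Actn3 (1.64) and Neb (1.143), the giant protein nebulin, were higher and Ckm, muscle creatine kinase, was lower (-1.12, SE 0.13, limma adjusted p = 0.010).

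Markers of other cells were also followed. Of the marker lists for keratinocytes (8), fibroblasts (6), macrophages (6), Schwann cells (6), endothelium (5), and adipocytes (4), 0 genes passed the limma test at any day, with 0 of 34, 2 of 35, and 8 of 35 at an unadjusted p under 0.05 at days 1, 3, and 7. Among all genes tested these counts were 634 of 14776, 2196 of 14943, and 1848 of 15081. The summed macrophage level was 93.0 to 216 TPM (sham) and 178 to 301 TPM (denervated) at day 7, and 6 of 6 of its genes had a higher mean on the denervated side. The summed Schwann cell level was 330 to 614 TPM and 247 to 272 TPM, and 4 of 6 of its genes had a lower mean. The summed fibroblast level was 865 to 1639 TPM (sham) and 1045 to 1933 TPM (denervated), with 6 of 6 genes higher in mean, and the adipocyte level was 58.6 to 118 TPM and 67.4 to 126 TPM, with 4 of 4 higher. None of the markers of these lists was at 0 in a sample of day 7. The summed keratinocyte level at day 7 was 5885 to 6877 TPM (sham) and 6797 to 8568 TPM (denervated), with 5 of 8 genes higher in mean. The list medians at day 7 were 0.63 (macrophages), -0.55 (Schwann cells), 0.45 (fibroblasts), 0.26 (adipocytes), 0.31 (keratinocytes), and -0.0 (endothelium). At day 1 without mouse 1 they were, in the same order, -0.91, -0.73, -0.14, -0.88, -0.06, and -0.26. The part of these cells in the levels of the 5 genes was not tested.

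**Figure D4:**
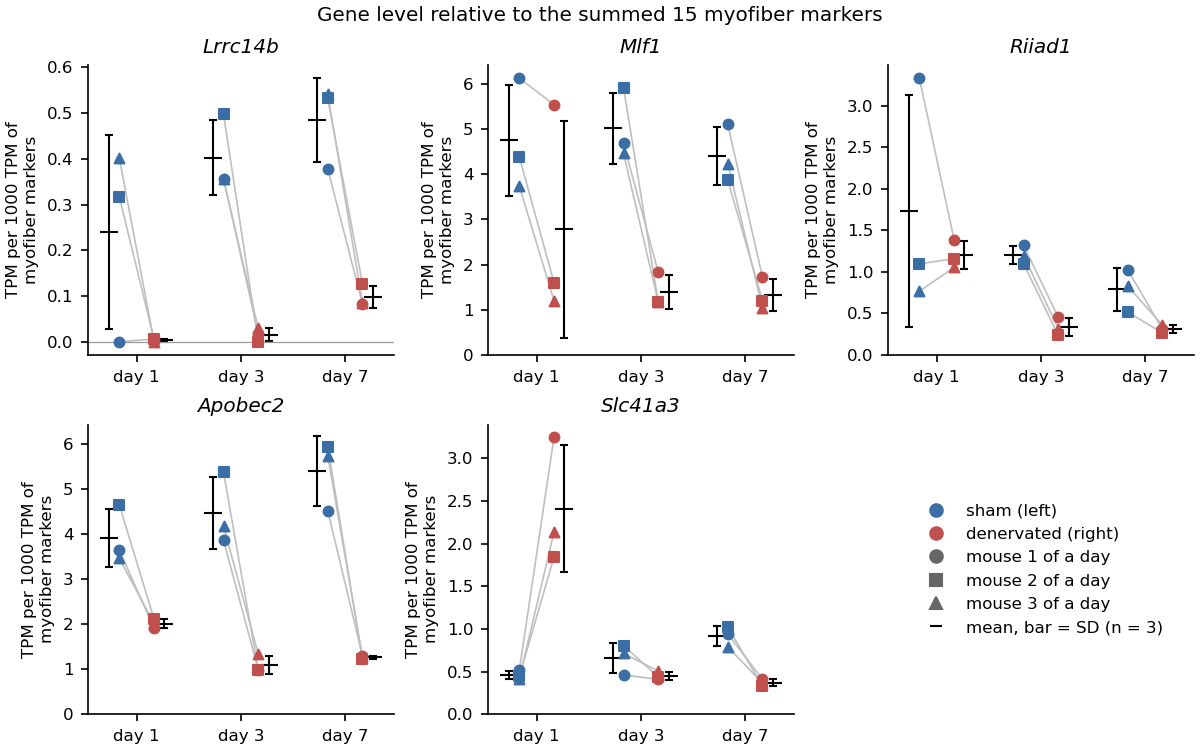
Level of each gene per 1000 TPM of the summed 15 myofiber markers (linear axis) in each biopsy, sham in blue and denervated in red, with black bars for mean and SD (n = 3). For Apobec2 the sides are apart at each day, and mouse 1 of day 1, which had the least muscle marker RNA, has the highest sham ratio of Mlf1 and Riiad1.

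How closely the 5 genes moved together depended on what was compared. Over the 18 samples Lrrc14b, Mlf1, and Apobec2 had pairwise correlations (Pearson r of log2 levels) of 0.88 to 0.92, and Slc41a3 had 0.21 with Lrrc14b and 0.25 with Mlf1. In the 9 sham samples alone Slc41a3 had 0.90 with Lrrc14b, 0.93 with Mlf1, and 0.95 with Apobec2, and Riiad1 had 0.25 to 0.45 with the other 4 genes. For the differences within the 9 mice, Slc41a3 had 0.90 with Apobec2, 0.73 with Riiad1, 0.60 with Mlf1, and 0.22 with Lrrc14b, and Riiad1 had 0.05 with Lrrc14b. These points share mice and the muscle content of the biopsy, and the low biopsies of mouse 1 of day 1 were among them.

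Genes with the most similar levels over the 18 samples were found among 14741 genes. Closest to Apobec2 were Dhrs7c (r = 0.979), a dehydrogenase of the sarcoplasmic reticulum, Abcb4 (0.970), a phospholipid transporter, and Hhatl (0.957). Closest to Lrrc14b were Kcnj2 (0.979), an inward rectifier potassium channel, Asb10 (0.971), and Scn4b (0.967), a sodium channel subunit. Mlf1 was nearest to Smco1 (0.945), Fn3k (0.930), and Cmbl (0.921). Riiad1 was nearest to Hadh (0.928), an enzyme of fatty acid oxidation, Mgst3 (0.868), and Tbc1d4 (0.866), which controls glucose transport. The nearest genes to Slc41a3 were less near, with Alpl (0.812), a phosphatase, Slc8a3 (0.801), a sodium-calcium exchanger, and Phlda1 (0.785).

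By the differences within the 9 mice, the 10 genes most similar to the mean of the 5 were Tpi1 (0.985), Lrrc38 (0.970), Gm9507 (0.969), Gm19402 (0.968), Dhrs7c (0.961), Gm10318 (0.960), Krtap10-4 (0.959), Sh3bgr (0.958), Gm3250 (0.957), and Eno3 (0.955). Tpi1 and Eno3 are enzymes of glycolysis. They were lower at day 3 by -0.87 ± 0.11 (Tpi1) and -1.15 ± 0.31 (Eno3), while Krtap10-4, a keratin-associated protein of hair, differed by -0.39 ± 0.22 at day 3 and 1.01 ± 0.66 at day 1. A correlation matches the shape over the mice and not the size. Lrrc38 (-1.605), Dhrs7c (-2.43), and Sh3bgr (-1.145) were lower at day 7. Gm9507 was at 1.13 at day 1 and 0.04 at day 7, Gm19402 at 1.205 and -0.26, Gm10318 at 0.80 and -0.21, and Gm3250 at 0.95 and -0.52. With rank correlation 1 of these 10 genes was again among the 10 nearest, so this list depends on the measure.

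The closest relatives of the 5 genes did not pass the test on any day, and 0 of 8 had an unadjusted limma p under 0.05. They were Slc41a1 and Slc41a2, Mlf2, Lrrc14, Apobec1 and Apobec3, and the kinase A subunits Prkar2a and Prkar2b, whose domain Riiad1 resembles. Changes at day 3 were 0.28 for Slc41a1 (SE 0.12, limma adjusted p = 0.344), -0.08 for Mlf2 (SE 0.14, limma adjusted p = 0.852), -0.07 for Lrrc14 (SE 0.20, limma adjusted p = 0.930), and 0.19 for Prkar2a (SE 0.12, limma adjusted p = 0.529). At day 7 Slc41a1 was 44.4 ± 5.7 TPM (sham) and 51.3 ± 4.2 TPM (denervated), with a change of 0.21. Slc41a2 had the largest change of the 8 at day 7, 0.43 (SE 0.49, limma adjusted p = 0.781). At day 1 the largest was that of Slc41a1, -0.60 (SE 0.40, limma adjusted p = 0.999), with 37.1 ± 19.4 TPM (sham) and 21.8 ± 0.5 TPM (denervated), and the mean difference without mouse 1 was -1.06.

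Few genes of the wider pathways passed the test. Across all genes tested with limma, 1.45% passed at day 3 (217 of 14943) and 1.53% at day 7 (230 of 15081). At day 1 it was 0% (0 of 14776), with 634 genes at an unadjusted p under 0.05, against 2196 at day 3 and 1848 at day 7. Of the magnesium transport genes 0 of 13 tested passed at each day, of the deaminases 0 of 9, and of the Mlf1 paralog and binding partners 0 of 5. Of these 27 genes 0, 3, and 1 had an unadjusted p under 0.05 at days 1, 3, and 7, and the medians of the lists lay between -0.07 and 0.13. Among 20 tested subunits and anchors of protein kinase A, Pkia, an inhibitor of the kinase, fell at day 3 (-1.23, SE 0.15, limma adjusted p = 0.0178), and Prkar1a, a regulatory subunit, rose at day 7 (0.67, SE 0.12, limma adjusted p = 0.0486).

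Leucine-rich repeat and leiomodin genes went both ways. Of 10 tested, Lrrc30 (-1.80, SE 0.26, limma adjusted p = 0.0301) and Lrrc39 (-1.27, SE 0.20, limma adjusted p = 0.0434), a protein of the sarcomere, fell at day 3. When blocked by animal, Lrrc39 missed the threshold at day 3 (limma adjusted p = 0.0812). At day 7 Lrrc38, a subunit of potassium channels, fell by 1.60 (SE 0.26, limma adjusted p = 0.0368). Lrtm1 (1.99), Lmod2 (1.42), which builds actin filaments, and Lrrc2 (1.21) rose at day 7. Medians of the list were -0.60 (-1.09 without mouse 1), -0.07, and -0.38 at days 1, 3, and 7.

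Other genes of mature muscle supplied the nearest comparison. Of 40 such genes tested at day 3, 11 fell and 2 rose, and the median change was -0.76. At day 7, 9 fell and 1 rose, with a median of -0.39. At day 1, 0 of 39 passed, with a median of -0.49 (-0.93 without mouse 1). Among the genes that passed, Dhrs7c (-2.78, SE 0.31, limma adjusted p = 0.0134), Smco1 (-2.42), Smtnl1 (-2.12), a regulator of contraction, and Asb12 (-2.04) and Asb14 (-1.50), adaptors of ubiquitin ligases, had the largest falls at day 3. Asb5 (1.79) and Kbtbd12 (1.71) rose. When mouse was a blocking term, neither Asb14 (limma adjusted p = 0.0553) nor Kbtbd12 (limma adjusted p = 0.0826) passed at day 3, and the chloride channel Clcn1 did (-1.66, limma adjusted p = 0.0397, against 0.066 without the block). At day 7 the largest falls among the genes that passed were those of Dhrs7c (-2.43, SE 0.16, limma adjusted p = 0.00228), Smco1 (-1.91), Mylk2 (-1.58), the myosin light chain kinase of skeletal muscle, Phkg1 (-1.47), a subunit of phosphorylase kinase, and Cox7a1 (-1.36), a subunit of cytochrome oxidase. Smtnl1 was at -1.38 at day 7 (limma adjusted p = 0.0556) and passed with the block (limma adjusted p = 0.0476). Dhrs7c fell from 86.7 ± 24.4 to 12.4 ± 4.1 TPM at day 3, a range like that of Apobec2 (81.4 to 19.5 TPM).

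The genes that respond to denervation moved the other way. Of 11 tested at day 3, 8 rose and 0 fell, led by Chrng (5.71), Myog (5.21), Chrnd (3.79), Chrna1 (3.67), and Gadd45a (3.56). Chrng passed the filter of 1 TPM through its denervated samples alone, with 0.274 to 0.449 TPM (sham) and 23.0 to 61.8 TPM (denervated). The size of its change therefore depends on the 0.5 added to each level. At day 7, 8 of 12 rose and Sln, the calcium pump regulator sarcolipin, fell (-2.86, SE 0.31, limma adjusted p = 0.00929). At day 1 the change of Myog was 4.05 (SE 0.51, limma adjusted p = 0.281), with 1.38 ± 0.83 TPM (sham) and 31.5 ± 17.99 TPM (denervated), and the mean difference without mouse 1 was 4.02. In all, 25 listed genes passed at day 3 and 27 at day 7. Fewer calls remained when a mouse was left out, which leaves 2 samples a side. Without mouse 1, 2, or 3 of the day, 15, 1, and 0 listed genes passed at day 3 and 17, 1, and 1 at day 7.

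**Figure D5:**
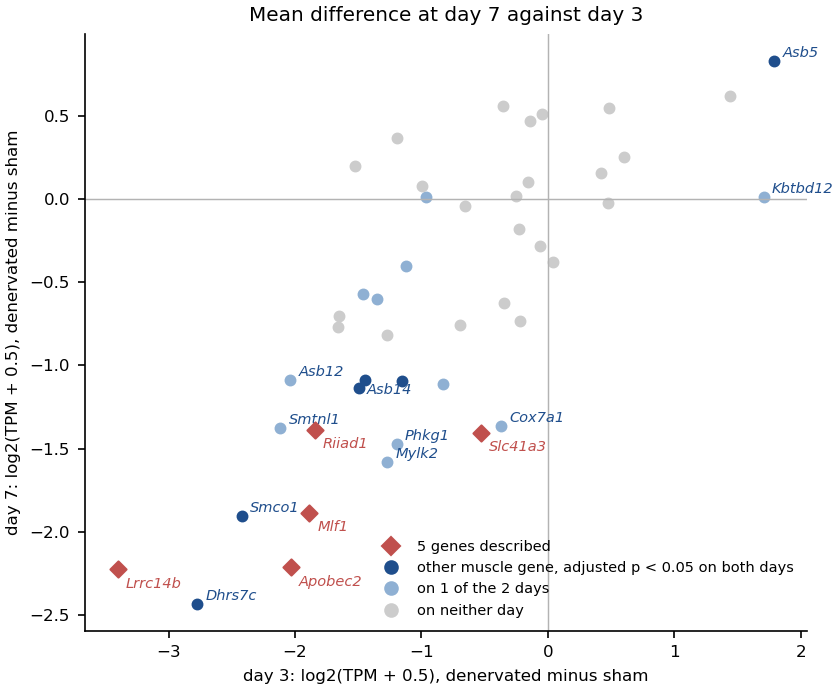
Mean difference in log2(TPM + 0.5) at day 7 against day 3 for the 5 genes (red diamonds) and 40 other muscle genes (circles, colored by whether they passed an adjusted p of 0.05 at both days, 1 day, or neither). Lrrc14b, Mlf1, and Apobec2 lie at the low end of both axes near Dhrs7c and Smco1, and Slc41a3 lies at -0.53 on day 3 and -1.40 on day 7.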

How the data were processed

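RNA was extracted from skin and muscle biopsies, and libraries were made with a TruSeq RNA v2 kit and sequenced on a NextSeq. The authors called bases with bcl2fastq 2.17.1.14, removed duplicate reads with ParDRe, trimmed with Fastp, quantified mouse cDNA (Ensembl, GRCm38) with kallisto 0.43.1, and normalized with Sleuth. The deposited signal is TPM per transcript that the authors scaled further between samples, so that sums run from 833186 to 1143839, and tests planned for plain TPM were kept. Columns were matched to samples by day, side, and library number. The sample names pair both sides of a mouse, and residuals of the same mouse correlated with r of 0.13 to 0.51.

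Transcripts were joined to GENCODE M21 by identifier (98.46% of 113194) and summed over 35150 genes. Depth, estimated from the steps of low values, lay between 10500000 and 32500000 reads a library (median 14500000). Genes that reached 1 TPM in 3 or more of the 6 samples of a day were compared with limma 3.58.1 (R 4.3.3) on log2(TPM + 0.5). The fit used a trend, two-sided tests, Benjamini-Hochberg adjustment over all genes tested, and a threshold of 0.05. It had no term for the mouse, so limma p values leave the pairing of the sides out, except where a block is named. The test was tried on simulated data. Replicates are separate mice.

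The 5 genes and all gene lists were chosen with earlier results of these data known. Named genes were the 5 genes, their relatives, up to 5 genes per list and day with the largest change among those past the threshold, the most similar genes, and checks of lesion and tissue. The alternatives were other pseudocounts, filters, and scalings, a replicate block for the mouse, dropping the trend, fitting the 18 samples together, the top transcript, the mean in place of the median, and leaving out a mouse. Python 3.11.15 with numpy 2.4.6, pandas 2.3.3, and matplotlib 3.10.9 did the rest.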

Additional observations from a re-analysis of the deposited data

Results flagged for a closer look

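Slc41a3 went in opposite directions at different days. Its difference between the sides was 2.09 at day 1, with all 3 mice higher on the denervated side, and -0.53 at day 3 and -1.40 at day 7, with all 3 mice lower. The difference between the days was not tested, and the days came from different mice.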

How the results depend on the processing

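Of 135 alternative values for differences of single genes, 0 changed sign and 4 moved by more than 1 SD between mice. That SD was as wide as 2.38 (Lrrc14b) and 1.43 (Mlf1) at day 1, so staying within it says little there: Lrrc14b went from -2.55 to -3.89 without mouse 1, and Mlf1 from -1.22 to -0.62 without mouse 3. In a count added after the data were seen, 0 to 3 of the 5 genes met the onset rule at day 1 without 1 mouse, against 0 with all mice, and 4 and 5 met it at days 3 and 7 whichever mouse was left out. Lrrc14b at day 3 was -4.70 with a pseudocount of 0.1, as its levels are near 0. With only the top transcript of each gene the median of the 5 genes at day 3 was -2.23. The count of all genes called at day 1 was 0, against 2 after scaling to an equal sum, 1 with a filter of TPM above 0, 6 without a trend, and 30 in a fit of all 18 samples, where 1 listed gene was called. Without 1 mouse it was 0 to 4. At day 3 it was 0 to 133 without 1 mouse and 329 in the fit of all 18 samples, and listed genes were 0 to 15 without 1 mouse. At day 7 it was 1 to 127 without 1 mouse, and listed genes were 1 to 17 without 1 mouse and 12 in the fit of all 18 samples. Leaving out a mouse leaves 2 samples a side. With the mouse as a replicate block 0, 217, and 328 genes were called at days 1, 3, and 7, with 0, 23, and 30 listed genes: at day 3, 7 listed calls were lost and 5 gained, and at day 7, 0 were lost and 3 gained. Of the 10 genes most similar to the mean of the 5, 1 was shared under rank correlation and 6 after scaling to the myofiber markers. Depth limits Lrrc14b and Riiad1 most. Normalized TPM hold no counts, so the limits on reads are estimates.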
